A study of Homo sapiens with 32 samples.

Results

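The 31 genes described here make or regulate the making of cholesterol and fatty acids, and they were read in LNCaP cells, an androgen-sensitive human line grown from prostate cancer that had spread to a lymph node. They were chosen by name, as the entries of the deposited gene tables that carry 1 of 31 symbols. All 31 were found among the 25498 genes of the tables, and all 31 were among the 16995 genes that passed a filter on low counts. By role, 5 regulate the pathway or move sterol between membranes, 6 take acetyl-CoA to farnesyl diphosphate, 11 take farnesyl diphosphate through squalene to cholesterol, and 9 make, lengthen, desaturate, or activate fatty acids. PolyA RNA was sequenced from 8 groups of 4 libraries. Cells of 1 group stayed in medium with fetal bovine serum (FBS) and no added ligand. Cells of the other 7 groups spent a day in charcoal-stripped serum (CSS), a serum depleted of much of its steroid and other lipid. Of these, 1 group had no ligand, and the other 6 were given 100 ng/mL of EGF or of NRG-1 for 5 minutes, 1 hour, or 4 hours. EGF is a ligand of EGFR, and NRG-1 is a ligand of HER3 and HER4. The comparison of FBS with CSS is one of 2 whole sera, so that no single component of serum can be told apart, and both ligands were tested in CSS alone and in a single cell line.

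Cells make cholesterol from acetyl-CoA by way of mevalonate and squalene, and they make fatty acids from acetyl-CoA by way of malonyl-CoA. Both branches are under the SREBP transcription factors, encoded by *SREBF1* and *SREBF2*, which are held in the endoplasmic reticulum with SCAP while sterol is plentiful. INSIG proteins retain that complex, and its release when sterol falls lets the factors reach the nucleus and raise the genes of the branches. In prostate cancer cells the pathway is known to respond to androgen and to growth factor signaling.

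The 32 libraries held between 63822654 and 92401724 counts, with a median of 77866194. Of 6 genes that mark LNCaP or luminal prostate cells, each was expressed in every library, at 25.1 TPM (transcript abundance scaled for length and library total) or more. Of 7 markers of leukocytes, fibroblasts, endothelium, and basal cells, 5 did not exceed 0.04 TPM, *COL1A1* reached 5 TPM, and *VWF* reached 3.1 TPM. The summed level of these 7 markers was 3.02 to 3.92 TPM in FBS, 4.58 to 6.8 TPM in CSS, 2.98 to 5.48 TPM after 4 hours of EGF, and 3.23 to 5.48 TPM after 4 hours of NRG-1, and its part in the results was not tested. Batch 2 differed from batch 1 (adjusted *P* value below 0.05) for 18 of the 31 genes, 8 higher and 10 lower, and for 55.6% of all genes tested. Batch was therefore a term in every fit of the main analysis.

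In every group the same library, batch 2, replicate 2, was the lowest by the measure that follows. Levels of a gene in CPM (its share of a library's counts, scaled by TMM) were set against the length of its transcript, and the slope was expressed as the change of log2 CPM per doubling of length. Relative to the mean of its own group, the slope was between -0.140 and -0.052 in the 8 libraries of batch 2, replicate 2, and between -0.012 and 0.097 in the other 24. Longer genes thus had lower levels in these 8 libraries, and among the members *ACACA* and *FASN* are the longest, at 3.4 and 2.98 times the length of the median gene. The mean slope was also lower in FBS (-0.11 ± 0.095, SD, n = 4) than in CSS (0.023 ± 0.049, SD, n = 4). Counts over all 31 members are accordingly given again without the 8 libraries in each comparison where a member was called, whereas counts by role and counts of other lists are from all libraries. Values of called members that moved by over 1.5 times without them or with a correction for length are named. Whether transcript length has a part in any result was not tested beyond these values.

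**Figure D1:**
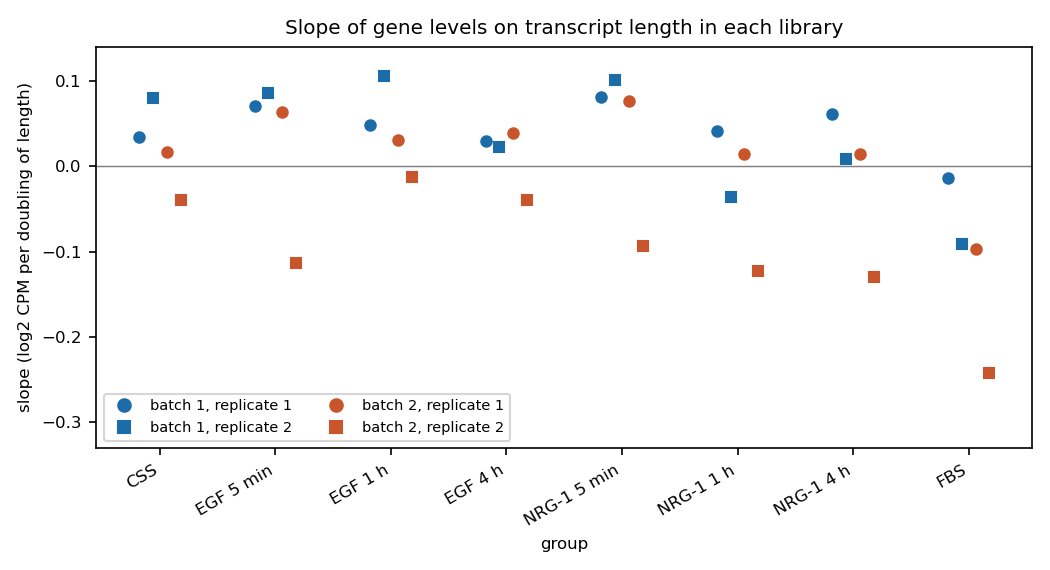
Slope of gene level on transcript length (log2 CPM per doubling of length, relative to the mean of all libraries) for each of 32 libraries by group. Squares in orange, batch 2 replicate 2, are the lowest of their group in all 8 groups, and FBS libraries lie between -0.242 and -0.014.

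In CSS, expressed as TPM so that genes of different length can be compared, *SCD*, the desaturase that makes oleate, was the highest of the 31 members at 251 ± 20.8 TPM (SD, n = 4). The sterol reductase *TM7SF2* followed at 235 ± 15.0 TPM, the fatty acid synthase *FASN* at 194 ± 37.5 TPM, and the citrate lyase *ACLY* at 181 ± 20.9 TPM. Each of the 4 differed from the next by less than 2 SD of one of the pair, so their order is not firm. At the other end stood *STARD4*, a sterol carrier of the cytosol, at 9.34 ± 1.66 TPM (n = 4), and next to it the mevalonate kinase *MVK* at 17.5 ± 1.49 TPM. *SREBF1* (98.5 ± 10.5 TPM) and *SREBF2* (84.1 ± 9.01 TPM) were at similar levels.

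The members that rose the most in FBS were mostly not those that rose the most after 4 hours of ligand. FBS raised *EBP*, *ACSL3*, *INSIG1*, *IDI1*, *FDFT1*, and *FADS1* by log2 fold changes of 0.83 to 1.21 against CSS. Both ligands at 4 hours raised *STARD4*, *DHCR7*, *NSDHL*, *SC5D*, and *CYP51A1* by 0.43 to 1.29, and they left *ACSL3* and *FADS1* within 0.084 of CSS on the same scale. NRG-1 at 4 hours also raised *INSIG1* (0.67), *FDFT1* (0.37), *IDI1* (0.35), and *EBP* (0.28). EGF at 4 hours raised *EBP* by 0.22, while *IDI1* (0.20), *FDFT1* (0.16), and *INSIG1* (0.10) were not called. *MVK* rose in FBS and fell with both ligands, and *TM7SF2* fell in all 3. The same CSS libraries serve every comparison with CSS.

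**Figure D2:**
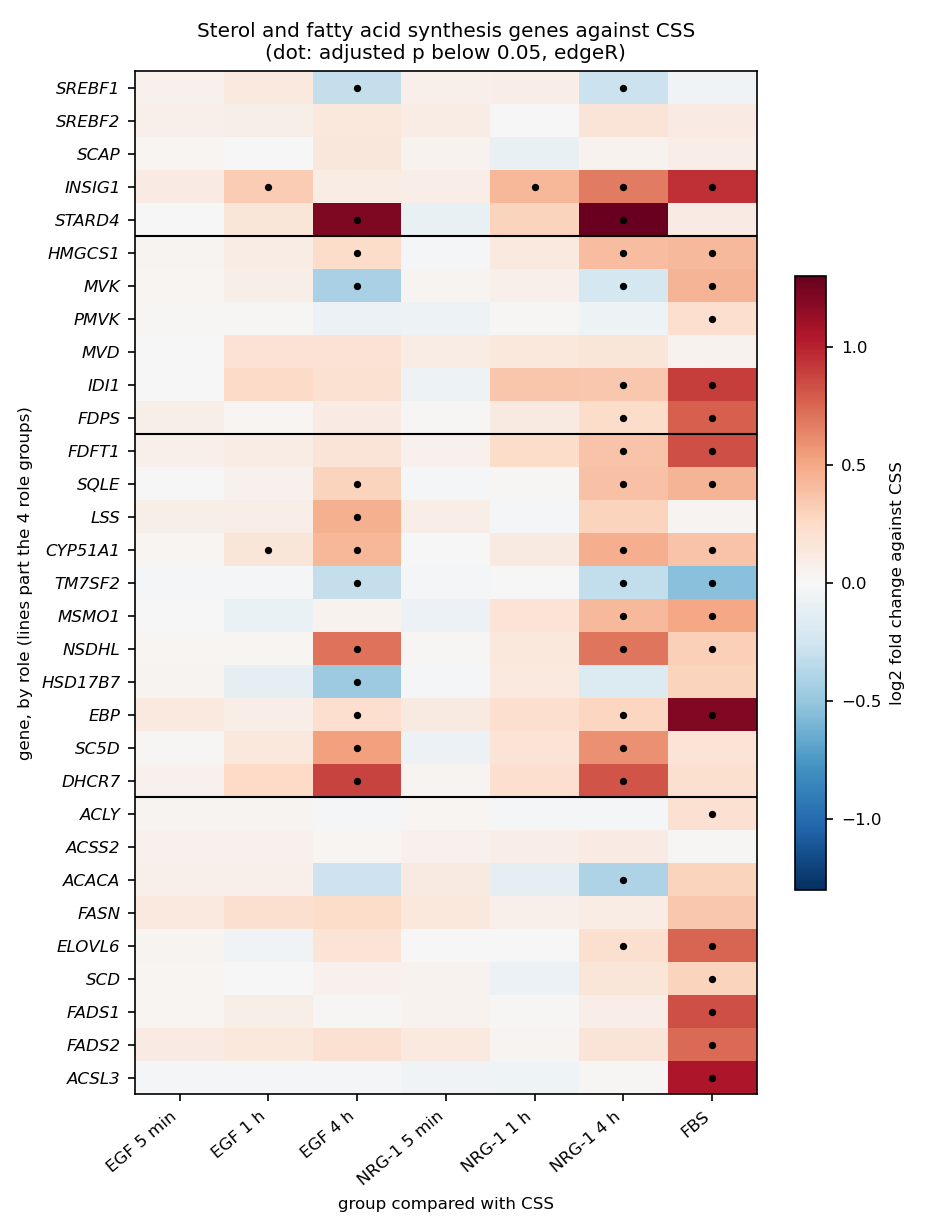
Log2 fold change against CSS (color) of the 31 genes, in rows by role, for each ligand and time and for FBS, with a dot where the adjusted *P* value of edgeR was below 0.05. Dots fill most of the FBS column (19 of 31), 13 stand under EGF at 4 hours and 18 under NRG-1 at 4 hours, and none stand at 5 minutes.

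In FBS against CSS, 18 of the 31 members rose and 1 fell at an adjusted *P* value below 0.05 in edgeR, where 26% of all genes tested rose and 26.8% fell. The median log2 fold change of the members was 0.31, against -0.0082 for all genes tested. Without the 8 libraries of batch 2, replicate 2, 24 members rose and 1 fell, where 29.5% and 27.6% of all genes did. Another fit blocks on batch and replicate together, and so pairs the libraries of a number across groups. It is called the paired fit below, although the labels state no pairing across groups. In that fit 23 rose and 1 fell, where 29.9% and 30.5% of all genes did. In batch 1 alone 24 rose and 1 fell, and in batch 2 alone 11 and 1. Shares of all genes were not counted in the fits of a single batch, here and below. By role, 1 of 5 regulators, 5 of 6 genes of the mevalonate branch, 6 of 11 genes of the squalene branch, and 6 of 9 genes of fatty acid synthesis rose, and the 1 that fell, *TM7SF2*, belongs to the squalene branch.

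After 4 hours of EGF, 9 members rose and 4 fell, where 24.6% of all genes tested rose and 24.6% fell. The 9 are 29.0% of the members, close to the background, while the median log2 fold change was 0.15 against -0.022 for all genes. Without batch 2, replicate 2, 15 rose and 5 fell, where 27.8% and 28.3% of all genes did. The paired fit also had 15 and 5, where 28.2% and 28.8% of all genes changed. Batch 1 alone had 15 and 5 as well, while batch 2 alone had 4 and 2. After 4 hours of NRG-1, 14 rose and 4 fell, where 21.6% and 21% of all genes tested did, with a median of 0.17 against -0.010. These became 18 and 5 without the 8 libraries, where 25.1% and 25% of all genes changed. In the paired fit they were 17 and 4, where 25.9% and 25.6% did. Batch 1 alone had 18 and 5, and batch 2 alone 7 and 1. The members that rose were mostly of the squalene branch, 7 of 11 with EGF and 8 of 11 with NRG-1. Of the 9 genes of fatty acid synthesis, 0 changed with EGF, 2 having an unadjusted *P* value below 0.05, and with NRG-1 1 rose and 1 fell. In the paired fit the fatty acid genes *ACACA* (lower), *FASN*, *ELOVL6*, and *FADS2* (higher) also changed with EGF, and *FADS2* (higher) was added with NRG-1. With the correction for length the same genes changed with EGF, in the same directions. With NRG-1 that fit called *ACACA* lower and *ACSS2*, *FASN*, *ELOVL6*, *SCD*, *FADS1*, and *FADS2* higher (adjusted *P* at most 0.0436). In that fit 26.9% of all genes rose and 26.5% fell with NRG-1.

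**Figure D3:**
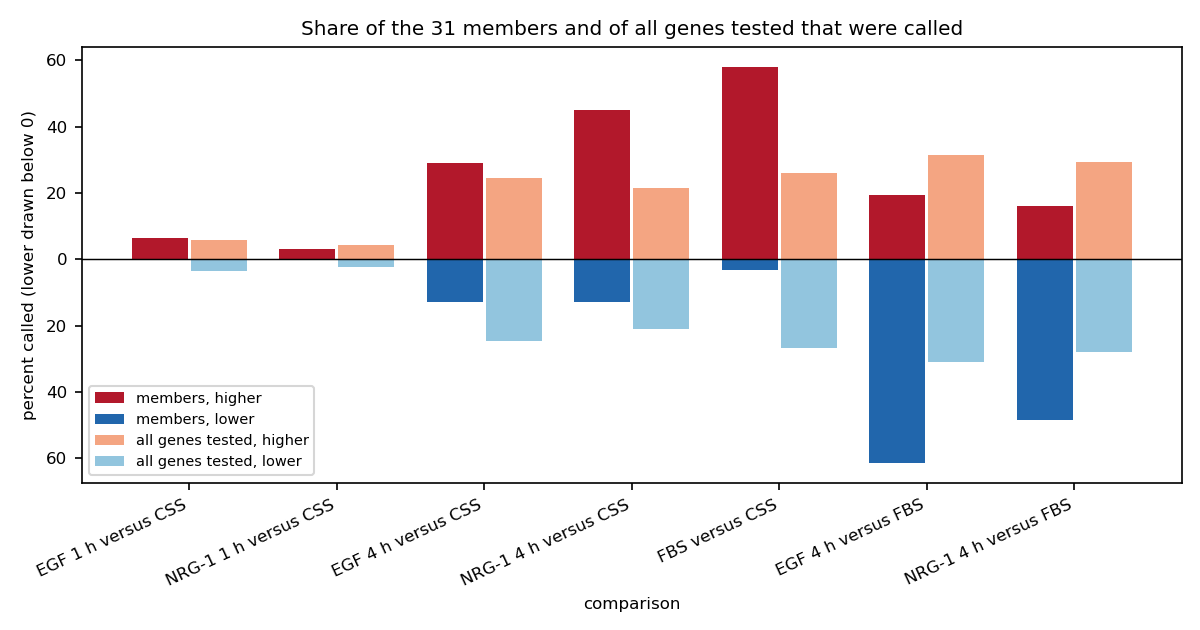
Percent of the 31 members (dark bars) and of all 16995 genes tested (pale bars) called higher (above 0) or lower (drawn below 0) in 7 comparisons. In FBS against CSS the dark bar for higher genes is 58.1% and the pale bar 26%, whereas the bars at EGF for 4 hours are 29.0% and 24.6%.

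Among the regulators and carriers, *INSIG1*, which retains the SREBP complex, had 75.9, 76.0, 94.5, and 91.3 CPM in the 4 CSS libraries (in the order batch 1 replicates 1 and 2, then batch 2 replicates 1 and 2, used throughout). Its 4 FBS libraries had 175, 162, 156, and 154 CPM. All 4 lay above the CSS range, a 1.93-fold difference (log2 fold change 0.95 with SE 0.076, adjusted *P* = 1.85e-11). With NRG-1 at 4 hours it had 119, 131, 138, and 149 CPM, also above every CSS library (log2 fold change 0.67 with SE 0.076, adjusted *P* = 2.26e-08). With EGF at 4 hours it had 93.8, 91.2, 87.1, and 87.2 CPM, which overlapped CSS (log2 fold change 0.10 with SE 0.075, adjusted *P* = 0.289).

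*STARD4*, the sterol carrier, had 10.2, 8.74, 12.0, and 15.0 CPM in CSS and 10.1, 11.9, 13.2, and 13.9 CPM in FBS, ranges that overlapped (log2 fold change 0.11 with SE 0.15, adjusted *P* = 0.549). EGF at 4 hours took it to 25.8, 23.3, 24.8, and 30.8 CPM, and NRG-1 at 4 hours to 20.6, 22.8, 28.3, and 42.0 CPM. Every library with ligand for 4 hours exceeded every library of CSS and of FBS. Its rise was 2.32-fold under EGF (log2 fold change 1.21 with SE 0.15, adjusted *P* = 4.86e-08) and 2.44-fold with NRG-1 (log2 fold change 1.29 with SE 0.15, adjusted *P* = 2.41e-08), the largest rises of the 31 members in these comparisons.

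Of the genes of the SREBP factors, *SREBF1* fell after 4 hours of either ligand. *SREBF1* had 270.0, 279, 302, and 259.9 CPM in CSS and 298, 256, 277, and 246 CPM in FBS, which overlapped (log2 fold change -0.046 with SE 0.08, adjusted *P* = 0.66). It had 226, 209.7, 246, and 214 CPM after EGF and 244, 227, 244, and 199 CPM after NRG-1 at 4 hours. All 8 of these lay below the lowest CSS library (log2 fold change -0.31 with SE 0.08, adjusted *P* = 0.00182 for EGF, and log2 fold change -0.28 with SE 0.08, adjusted *P* = 0.00545 for NRG-1). *SREBF2* had 253, 259.9, 263, and 233 CPM in CSS and 349, 273, 269, and 203 CPM in FBS. Its libraries had 296, 287, 288, and 241 CPM with EGF and 316, 292, 297, and 230.3 CPM with NRG-1 at 4 hours. The lowest library in each of these groups was batch 2, replicate 2, and none of the 3 differences passed the test (adjusted *P* = 0.416, 0.314, and 0.236). For NRG-1 the paired fit gave 0.0468, and without those libraries the values were 0.00984 for FBS and 0.0116 for NRG-1. *SCAP*, the escort of the SREBP factors, had log2 fold changes of 0.085, 0.15, and 0.051 in the same order, which did not pass, although its value for EGF did in the paired fit (adjusted *P* = 0.0377).

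**Figure D4:**
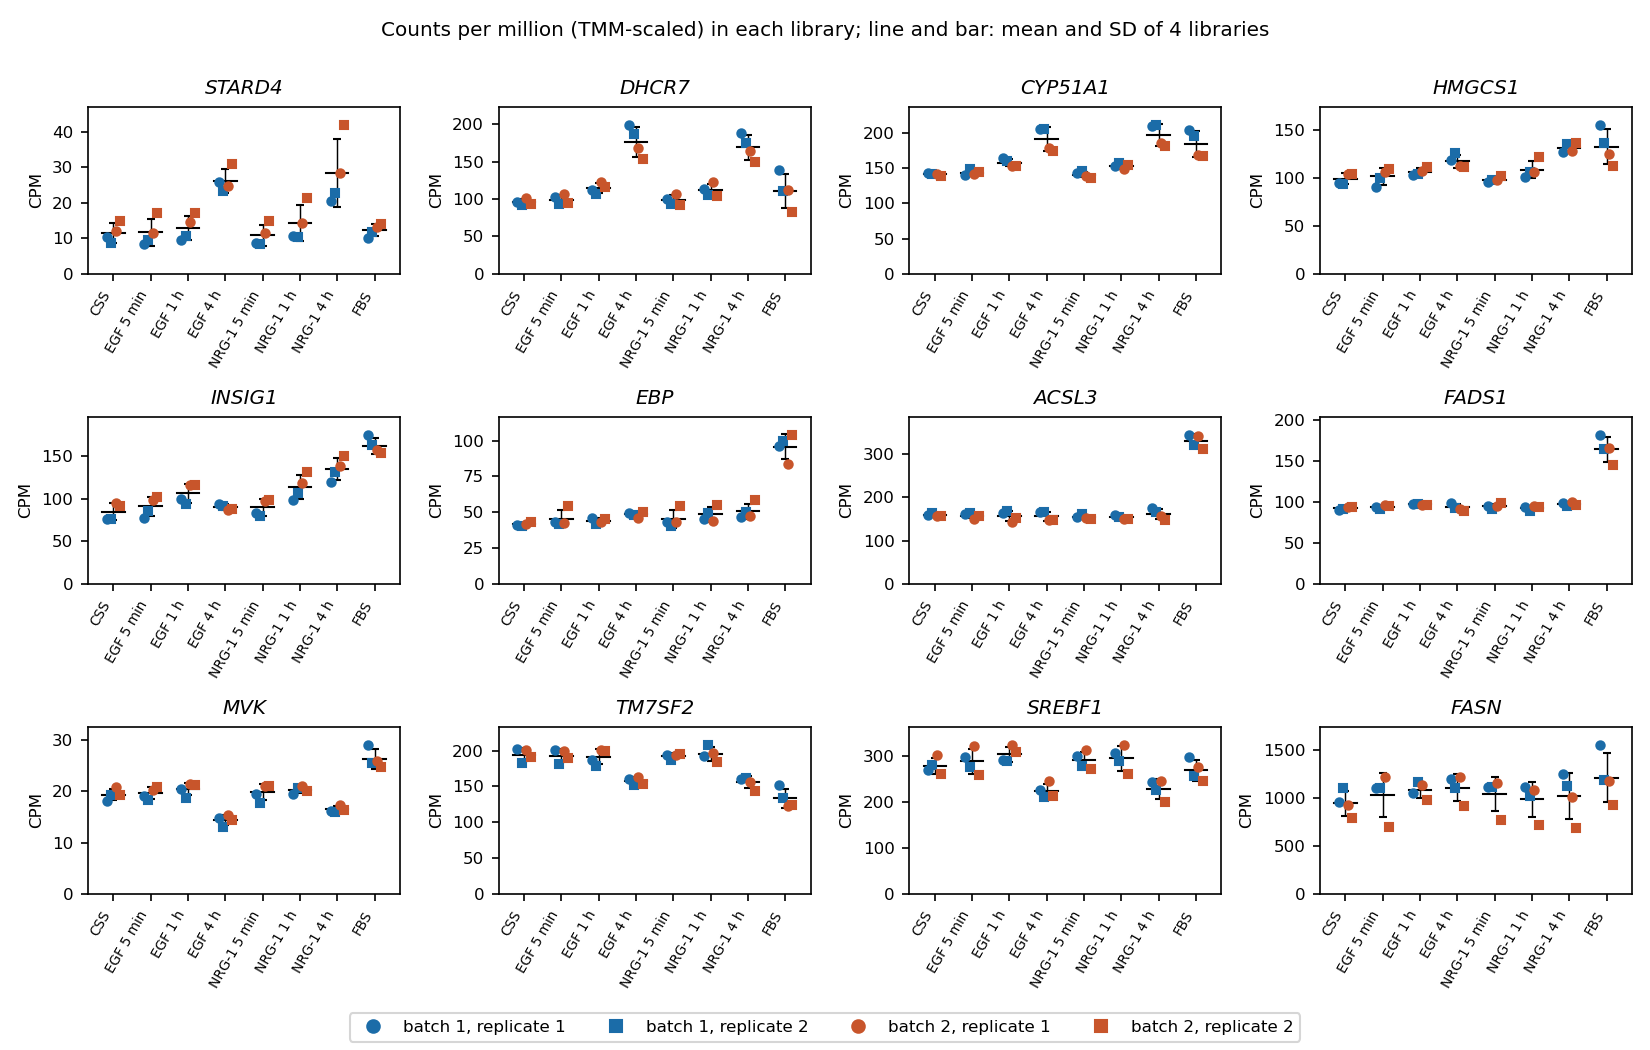
CPM of 12 members in each of 32 libraries, with the mean and SD of each group of 4 as a line and bar (color and shape give batch and replicate). *STARD4* and *DHCR7* are highest after 4 hours of either ligand, *EBP*, *ACSL3*, and *FADS1* are highest in FBS, and *INSIG1* is high in FBS and after 4 hours of NRG-1.

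In the mevalonate branch, *HMGCS1*, the synthase that makes HMG-CoA, had 94.5, 94.1, 105, and 105 CPM in CSS and 155, 137, 126, and 113 CPM in FBS. It had 119, 126, 112, and 112 CPM with EGF and 127, 135, 128, and 136 CPM with NRG-1 at 4 hours. Each of the 3 groups lay wholly above CSS (log2 fold change 0.42 with SE 0.074, adjusted *P* = 2.75e-05 for FBS, 0.24 with adjusted *P* = 0.00836 for EGF, and 0.41 with 5.04e-05 for NRG-1). *MVK*, the next kinase of the branch, had 18.1, 19.3, 20.8, and 19.2 CPM in CSS and 29.1, 25.5, 25.9, and 24.7 CPM in FBS. It had 14.8, 13.1, 15.5, and 14.4 CPM with EGF and 16.2, 15.9, 17.5, and 16.4 CPM with NRG-1. The FBS libraries lay above all CSS libraries (log2 fold change 0.44 with SE 0.057, adjusted *P* = 2.04e-07) and the libraries with ligand below them (log2 fold change -0.42 with SE 0.058, adjusted *P* = 5.03e-07 for EGF, and log2 fold change -0.23 with SE 0.058, adjusted *P* = 0.00174 for NRG-1).

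*IDI1*, which isomerizes isopentenyl diphosphate, had 73.8, 67.5, 72.7, and 85.6 CPM in CSS and 128, 143, 134, and 152 CPM in FBS, with no overlap (log2 fold change 0.90 with SE 0.13, adjusted *P* = 7.74e-07). With EGF it had 94.0, 90.9, 71.6, and 85.5 CPM, and with NRG-1 87.7, 98.9, 81.7, and 113 CPM, and both ranges met that of CSS. Its change passed the test for NRG-1 (log2 fold change 0.35 with SE 0.12, adjusted *P* = 0.0241), a call lost without CSS batch 1 replicate 2, CSS batch 2 replicate 1, or NRG-1 replicate 2 of either batch (log2 fold change 0.27 to 0.32), and not for EGF (log2 fold change 0.20, adjusted *P* = 0.203, or 0.0289 in the paired fit). *FDPS*, which makes farnesyl diphosphate, rose in FBS (log2 fold change 0.77 with SE 0.077, adjusted *P* = 1.83e-09) and with NRG-1 (log2 fold change 0.23 with SE 0.077, adjusted *P* = 0.0144), the latter not without NRG-1 replicate 2 of batch 1 (0.20) or of batch 2 (0.18), with 0.11 for EGF (adjusted *P* = 0.273). *PMVK*, the second kinase, rose in FBS (log2 fold change 0.21 with SE 0.053, adjusted *P* = 0.00132), but with the correction for length its value was 0.028 (adjusted *P* = 0.658). *MVD*, the decarboxylase that follows, had 0.044, 0.18, and 0.15 in FBS, EGF, and NRG-1, and none passed.

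In the squalene branch, *EBP*, an isomerase of sterol double bonds, had 40.9, 40.6, 41.4, and 43.2 CPM in CSS and 96.1, 99.3, 83.7, and 104 CPM in FBS. Every FBS library was above every other library of the 32 for this gene, a 2.31-fold difference from CSS (log2 fold change 1.21 with SE 0.088, adjusted *P* = 2.38e-12). It had 49.1, 48.3, 46.1, and 50.1 CPM with EGF and 46.7, 49.9, 47.3, and 58.4 CPM with NRG-1 at 4 hours. Those were also above CSS, by smaller amounts (log2 fold change 0.22 with SE 0.087, adjusted *P* = 0.0352 for EGF, and log2 fold change 0.28 with SE 0.087, adjusted *P* = 0.00922 for NRG-1). The EGF call was lost when any of the 8 libraries but EGF batch 2, replicate 1 was left out, with adjusted *P* values of up to 0.086, and the NRG-1 call without NRG-1 batch 2, replicate 2 (log2 fold change 0.22, adjusted *P* = 0.0642).

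*DHCR7*, the reductase of the last step from 7-dehydrocholesterol, had 96.6, 91.5, 102, and 93.3 CPM in CSS and 139, 111, 112, and 82.7 CPM in FBS. The FBS libraries ran from below to above the CSS range, batch 2 replicate 2 being the lowest (log2 fold change 0.21 with SE 0.10, adjusted *P* = 0.0805, with 0.0255 in the paired fit, and log2 fold change 0.33 with adjusted *P* = 0.0013 without the batch 2, replicate 2 libraries). With EGF at 4 hours it had 199.5, 187, 168, and 153 CPM, and with NRG-1 189, 175, 165, and 149 CPM. Every one of these 8 libraries exceeded every FBS and CSS library (log2 fold change 0.88 with SE 0.10, adjusted *P* = 2.15e-08 for EGF, and log2 fold change 0.82 with SE 0.10, adjusted *P* = 1.06e-07 for NRG-1).

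*SQLE*, the epoxidase that acts on squalene, had 58.4, 62.0, 60.2, and 60.4 CPM in CSS and 93.5, 83.4, 76.9, and 75.0 CPM in FBS. It had 78.8, 78.3, 69.8, and 67.6 CPM with EGF and 83.7, 84.4, 77.5, and 69.7 CPM with NRG-1 at 4 hours. All 3 groups were above CSS without overlap (log2 fold change 0.44, adjusted *P* = 2.06e-08 for FBS, 0.29 with 2.40e-05 for EGF, and 0.38 with 3.47e-07 for NRG-1).

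Other members of this branch differed in the comparisons with CSS in which they were called. With batch as the term, 0 of the 11 genes of the branch were called between the ligands at 4 hours. *NSDHL*, a demethylating dehydrogenase, rose under EGF (log2 fold change 0.71 with SE 0.088, adjusted *P* = 1.12e-07), with NRG-1 (log2 fold change 0.69 with SE 0.088, adjusted *P* = 2.24e-07), and less in FBS (log2 fold change 0.31 with SE 0.088, adjusted *P* = 0.00435, or 0.17 with the correction for length). *SC5D*, a sterol desaturase, rose with EGF by 0.54 (adjusted *P* = 9.55e-04) and NRG-1 by 0.60 (3.92e-04), with 0.17 in FBS (0.27, or 0.0197 in the paired fit). *CYP51A1*, the lanosterol demethylase, rose in all 3, by 0.37, 0.43, and 0.48. *LSS*, which closes the rings of lanosterol, rose under EGF (log2 fold change 0.46 with SE 0.13, adjusted *P* = 0.00359), and its value for NRG-1 was 0.29 (adjusted *P* = 0.0686, or 0.00655 in the paired fit). *FDFT1*, the squalene synthase, rose in FBS by 0.84 (adjusted *P* = 3.50e-08) and with NRG-1 by 0.37 (0.00266), and had 0.16 with EGF (0.169, or 0.0326 in the paired fit). *MSMO1*, a methylsterol oxidase, rose in FBS by 0.50 (0.0119) and with NRG-1 by 0.42 (0.037), and its NRG-1 call was lost without CSS batch 1 replicate 2, CSS batch 2 replicate 1, NRG-1 batch 1 replicate 2, or NRG-1 batch 2 replicate 2, the last of which took it to 0.25.

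In the same branch *TM7SF2* and *HSD17B7* had calls in the other direction. *TM7SF2*, a sterol reductase, fell in FBS (log2 fold change -0.55 with SE 0.06, adjusted *P* = 1.06e-08), under EGF (log2 fold change -0.30 with SE 0.06, adjusted *P* = 9.61e-05), and with NRG-1 (log2 fold change -0.32 with SE 0.06, adjusted *P* = 6.04e-05). *HSD17B7*, a ketosteroid reductase, fell under EGF (log2 fold change -0.48 with SE 0.14, adjusted *P* = 0.00714) and had -0.18 with NRG-1 (adjusted *P* = 0.344, or log2 fold change -0.32 with adjusted *P* = 0.00163 without the batch 2, replicate 2 libraries, and -0.24 with 0.00608 with the correction for length) and 0.29 in FBS (0.0864, or 0.00352 in the paired fit). Related pseudogene and paralog copies may share reads with *HSD17B7*, so its values are less certain, as are those of *FDPS*, which has processed pseudogenes.

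In fatty acid synthesis, *ACSL3*, which activates long-chain fatty acids, had 158, 165, 156, and 158 CPM in CSS and 344, 321, 343, and 311 CPM in FBS. The FBS libraries had about 2.07 times the CSS level without overlap (log2 fold change 1.05 with SE 0.042, adjusted *P* = 6.35e-18). With EGF it had 165, 165, 147, and 148 CPM and with NRG-1 174, 165, 157, and 149 CPM at 4 hours. Both overlapped CSS (log2 fold change -0.028 with SE 0.042, adjusted *P* = 0.625 for EGF, and log2 fold change 0.016 with SE 0.042, adjusted *P* = 0.798 for NRG-1).

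*ACACA*, the carboxylase that makes malonyl-CoA, had 392, 447, 357, and 316 CPM in CSS and 605, 488, 439.8, and 335 CPM in FBS. It had 345, 328, 319, and 257 CPM with EGF and 359, 332, 272, and 197 CPM with NRG-1 at 4 hours. Batch 2, replicate 2 was the lowest library in each of these groups, and all 3 groups overlapped CSS. The fall with NRG-1 passed the test (log2 fold change -0.40 with SE 0.13, adjusted *P* = 0.0145) but not without NRG-1 batch 2, replicate 2 (-0.29, adjusted *P* = 0.0662). Its value in FBS was 0.29 (adjusted *P* = 0.0592, or 0.00215 in the paired fit), and with the correction for length it was 0.57. With EGF it was -0.27 (0.0888, or 0.0032 in the paired fit). The correction for length gave -0.19 for EGF (adjusted *P* = 7.62e-04) and -0.28 for NRG-1 (8.22e-06).

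*FASN*, which builds palmitate, had 957, 1099, 928, and 783 CPM in CSS and 1549, 1184, 1173, and 925 CPM in FBS. It had 1189, 1099.7, 1214, and 910.0 CPM with EGF and 1244, 1125, 1009, and 685 CPM with NRG-1. The groups overlapped and none of the 3 changes passed (log2 fold change 0.35 ± 0.15, SE, adjusted *P* = 0.0563 for FBS, 0.23 with 0.221 for EGF, and 0.10 with 0.647 for NRG-1). The paired fit gave 0.00122 for FBS and 0.0298 for EGF, and with the correction for length the FBS value was 0.60 (adjusted *P* = 1.39e-09). That correction gave 0.29 for EGF (adjusted *P* = 1.49e-04) and 0.19 for NRG-1 (0.00939). *SCD* had 744, 758, 853, and 778 CPM in CSS and 1148, 950.5, 962, and 760.0 CPM in FBS, which overlapped through batch 2, replicate 2. It had 812, 786, 876, and 775 CPM with EGF and 892, 843, 948, and 798 CPM with NRG-1. The FBS rise passed (log2 fold change 0.29 with SE 0.092, adjusted *P* = 0.00991), but not without FBS batch 1, replicate 1 (0.18, adjusted *P* = 0.0835), and in batch 2 alone it was 0.085 against 0.48 in batch 1 alone. With NRG-1 its value was 0.15 (adjusted *P* = 0.193), or 0.18 (0.0195) without the 8 libraries and 0.20 (9.46e-04) with the correction for length.

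The remaining fatty acid genes moved chiefly in FBS. *FADS1* and *FADS2*, desaturases of polyunsaturated fatty acids, rose by 0.83 (adjusted *P* = 2.22e-14) and 0.74 (3.02e-06). *ELOVL6*, an elongase, rose by 0.76 (4.47e-09). With ligand at 4 hours, *FADS1* had 0.017 with EGF and 0.084 with NRG-1, *FADS2* 0.19 and 0.17, and none passed, although in the paired fit *FADS2* did (adjusted *P* = 0.017 and 0.0425). With the correction for length *FADS1* passed with NRG-1 (0.0187), and *FADS2* with both ligands (0.0114 and 0.0229). *ELOVL6* had 0.18 with EGF (0.0663, or 0.0111 in the paired fit) and rose by 0.21 with NRG-1 (0.0358), a call lost without NRG-1 replicate 2 of either batch or any CSS library but batch 2 replicate 2 (lowest 0.14). *ACLY*, which makes cytosolic acetyl-CoA from citrate, rose in FBS (log2 fold change 0.20 with SE 0.075, adjusted *P* = 0.0271), but not without FBS batch 1, replicate 1 (0.10, adjusted *P* = 0.221), nor without FBS batch 2 replicate 1 or any CSS library but batch 2 replicate 1. Its value was 0.30 without the 8 libraries, and its direction turned when limma was run on TPM (-0.0137 on log2(TPM + 1) and -0.0141 on log2(TPM + 0.1), neither of which passed). *ACSS2*, which makes acetyl-CoA from acetate, had 0.019, 0.025, and 0.11, and none passed, although the NRG-1 value did with the correction for length (adjusted *P* = 0.0436).

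Tested directly against FBS, EGF at 4 hours left 19 members lower and 6 higher, where 31% of all genes tested were lower and 31.5% higher. NRG-1 at 4 hours left 15 lower and 5 higher, where 27.8% were lower and 29.4% higher. Without batch 2, replicate 2 the counts were 19 and 6 for EGF, where 33.8% of all genes were lower and 31.9% higher. For NRG-1 they were 18 and 6, where 32.5% were lower and 31% higher. In batch 1 alone they were 20 and 5 for EGF and 17 and 4 for NRG-1, and in batch 2 alone 10 and 3, and 7 and 4. In both comparisons the members higher with ligand included *STARD4* (log2 fold change 1.10 for EGF and 1.18 for NRG-1), *DHCR7* (0.67 and 0.61), *NSDHL* (0.40 and 0.38), *SC5D* (0.37 and 0.43), and *TM7SF2* (0.24 and 0.22). The lowest with ligand were *ACSL3* (-1.08 for EGF and -1.03 for NRG-1) and *EBP* (-0.98 and -0.92). They were followed by *MVK* (-0.87), *INSIG1* (-0.85), and *FADS1* (-0.82) for EGF, and by *FADS1* (-0.75), *ACACA* (-0.69), and *MVK* (-0.68) for NRG-1. By role, 7 of 9 fatty acid genes were lower than FBS with EGF and 6 of 9 with NRG-1, and 0 of 9 were higher. In the squalene branch 5 of 11 were higher and 5 lower with EGF, and 4 higher and 3 lower with NRG-1. Several of these calls rest on single libraries. Without FBS batch 1, replicate 1, the calls for EGF were lost for *HMGCS1* (-0.086 from -0.18, adjusted *P* = 0.282), *ACLY* (-0.11 from -0.21, 0.136), *SCD* (-0.13 from -0.23, 0.212), *SC5D* (0.32, 0.0512), and *SQLE* (-0.11, 0.0533). Those for NRG-1 were lost without the same library for *ACLY* (-0.11 from -0.21, adjusted *P* = 0.166) and *SREBF1* (-0.18, 0.0693), and without NRG-1 batch 2, replicate 2 for *SC5D* (0.30, 0.057) and *SREBF1* (-0.18, 0.0542). For EGF the *MSMO1* call was lost without EGF batch 2 replicate 1 or FBS batch 1 replicate 2, and *HMGCS1*, *SCD*, and, for NRG-1, *ACLY* lost theirs without other libraries as well, by smaller moves. With the correction for length *PMVK* went from -0.29 to -0.12 with EGF and from -0.28 to -0.15 with NRG-1, and *SC5D* from 0.37 to 0.20 and from 0.43 to 0.28. With EGF *HMGCS1* went from -0.18 to -0.29 with that correction, and *ACLY* from -0.21 to -0.33 without the 8 libraries. Members gained a call too. Without the 8 libraries *MSMO1* (-0.26 from -0.073) and *SCD* (-0.22 from -0.14) were lower with NRG-1 (adjusted *P* = 0.00202 and 0.00476), and with the correction for length *FASN* was lower with EGF (-0.31 from -0.12) and NRG-1 (-0.41 from -0.25). In the NRG-1 comparison *LSS*, *CYP51A1*, and *FASN* also passed in the paired fit (adjusted *P* = 0.0109, 0.0462, and 0.0112).

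At 1 hour few members had changed. With EGF, 2 rose and 0 fell, where 6% and 3.51% of all genes tested did. These were *INSIG1* (log2 fold change 0.33 with SE 0.075, adjusted *P* = 0.00272), with 99.6, 93.9, 115, and 116 CPM, and *CYP51A1* (log2 fold change 0.16 with SE 0.047, adjusted *P* = 0.0278). The *INSIG1* libraries overlapped those of CSS, and the *CYP51A1* call was lost without CSS batch 1 replicate 1 or 2, or without any EGF library but batch 1 replicate 2 (log2 fold change 0.14 to 0.16). With NRG-1, 1 rose and 0 fell, where 4.45% and 2.28% of all genes did. It was again *INSIG1* (log2 fold change 0.43 with SE 0.075, adjusted *P* = 2.14e-04), with 97.9, 107, 118, and 131 CPM, which lay above CSS without overlap. In the paired fit 4 rose with each ligand, where 8.27% of all genes rose with EGF and 7.13% with NRG-1. *IDI1* (adjusted *P* = 0.0221) and *DHCR7* (0.0202) were added with EGF, and *IDI1* (0.00154), *FDFT1* (0.0134), and *EBP* (0.011) with NRG-1. Without batch 2, replicate 2, 4 rose with EGF and 3 with NRG-1, where 7.7% and 6.03% of all genes did. In batch 1 alone 3 and 2 rose, and in batch 2 alone 0 and 1.

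At 5 minutes, 0 members were called with either ligand in edgeR, and 0 had an unadjusted *P* value below 0.05. Of all genes tested, 0.00588% rose and 0% fell with EGF, and 0% did either with NRG-1. Fitted log2 fold changes of the members ran from -0.015 to 0.13 with EGF and from -0.092 to 0.14 with NRG-1.

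With batch as the term, *INSIG1* was the 1 member called between the ligands at 4 hours. It was lower with EGF than with NRG-1 (log2 fold change -0.57 with SE 0.076, adjusted *P* = 2.81e-05), the 4 EGF libraries lying below all 4 with NRG-1, where 0.412% of all genes tested were lower and 1.25% higher with EGF. Its mean was 84.4 ± 9.89 CPM in CSS (SD, n = 4 here and in the next sentence). Over the 3 times, from 5 minutes to 4 hours, it was 90.8 ± 11.4, 106 ± 11.2, and 89.8 ± 3.27 CPM with EGF, and 89.5 ± 9.57, 114 ± 14.4, and 134 ± 12.6 CPM with NRG-1. In the paired fit 3 members were lower with EGF, *MVK* (log2 fold change -0.19, adjusted *P* = 0.0312) and *MSMO1* (-0.36, adjusted *P* = 0.0278) being added, and without batch 2, replicate 2 only *INSIG1* was. Of all genes, 1.48% were lower with EGF in the paired fit and 0.723% without those libraries. At 1 hour 0 members differed between the ligands in edgeR and 0 had an unadjusted *P* value below 0.05, where 0.941% of all genes tested were higher with EGF and 0.118% lower.

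Other genes of lipid metabolism, from 3 lists chosen with earlier results of these data known, give the surroundings. Of 19 other genes of lipid and isoprenoid synthesis, 6 rose and 4 fell in FBS, 4 rose and 6 fell with EGF at 4 hours, and 5 rose and 5 fell with NRG-1, with medians of 0.036, -0.030, and -0.024. As shares of the list these are 31.6% and 21.1% in FBS, 21.1% and 31.6% for EGF, and 26.3% in each direction for NRG-1, close to the shares of all genes tested (26% and 26.8%, 24.6% and 24.6%, and 21.6% and 21%). The largest change in FBS was that of *ELOVL7*, an elongase (log2 fold change 1.73 with SE 0.06, adjusted *P* = 2.78e-19), from 13.6 ± 3.23 to 45.0 ± 7.34 CPM (SD, n = 4 in each group). Under EGF it was that of *ACACB*, the mitochondrial acetyl-CoA carboxylase (log2 fold change -1.13 with SE 0.12, adjusted *P* = 1.08e-08), from 10.4 ± 0.914 to 4.77 ± 0.304 CPM.

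Of 7 genes of the liver X receptors, which act when sterol is plentiful, 2 rose and 4 fell in FBS, and 1 rose and 4 fell with each ligand at 4 hours, so that 57.1% fell in each comparison, where 26.8%, 24.6%, and 21% of all genes tested did. *ABCA1*, a cholesterol exporter and a target of these receptors, fell the most in FBS (log2 fold change -2.78 with SE 0.18, adjusted *P* = 1.22e-13), from 4.50 ± 0.529 to 0.642 ± 0.197 CPM, whereas it rose under EGF (log2 fold change 0.65 with SE 0.14, adjusted *P* = 3.64e-04). *ABCG1*, another exporter, fell the most under EGF (log2 fold change -1.39 with SE 0.076, adjusted *P* = 5.06e-15), from 15.1 ± 1.16 to 5.75 ± 0.493 CPM. Of 13 genes of fatty acid breakdown, 3 rose and 5 fell in FBS, and 1 rose and 2 fell with each ligand at 4 hours. That is 23.1% and 38.5% of the list in FBS, where 26% and 26.8% of all genes rose and fell, and 7.69% and 15.4% with each ligand, where the shares of all genes were 24.6% and 24.6% for EGF and 21.6% and 21% for NRG-1. The largest change in both FBS and EGF was that of *PPARGC1A*, a coactivator of mitochondrial genes (log2 fold change 0.72 with SE 0.28, adjusted *P* = 0.0306 in FBS, and log2 fold change -1.03 with SE 0.33, adjusted *P* = 0.0117 with EGF), but its mean was below 0.5 CPM in each of these groups.

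Promoter sequence was available for 28 of the 31 members in the RefSeq table of GRCh38.p14, a later build than hg19, which the submitters' processing notes name for the reads. Each window runs from 250 bases before to 50 bases after an annotated start, and the 28 members have 38 such windows. Motifs were searched on both strands as plain letters. TCACNCCAC, a form of the sterol regulatory element, is found in 1.13% of all 35116 windows and in 1 of 38 windows of the members, that of *SREBF2*. CCAAT, the NF-Y box, is in 34.6% of all windows and in 26 of 38 (68.4%). GGGCGG, the Sp1 box, is in 45% of all and in 34 of 38 (89.5%), and CACGTG, an E-box, is in 7.26% of all and in 5 of 38 (13.2%). The letters of these motifs cannot coincide over their whole length, and a match is a description of letters, not of binding.

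Shown here, 5′ to 3′ and with capitals marking TCACNCCAC and CCAAT on either strand (ATTGG on the printed strand is CCAAT on the other), are the window with the sterol motif (*SREBF2*), those of 3 members raised by ligand (*STARD4*, *DHCR7*, and *NSDHL*), and those of 3 raised most in FBS (*EBP*, *ACSL3*, and *INSIG1*).
SREBF2, chr22:41832855-41833154, + strand: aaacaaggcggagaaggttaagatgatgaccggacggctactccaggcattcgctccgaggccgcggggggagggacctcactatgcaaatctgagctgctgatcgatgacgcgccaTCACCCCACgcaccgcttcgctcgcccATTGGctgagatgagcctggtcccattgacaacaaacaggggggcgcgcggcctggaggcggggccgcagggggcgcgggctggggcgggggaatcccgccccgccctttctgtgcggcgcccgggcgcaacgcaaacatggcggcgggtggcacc
STARD4, chr5:111512486-111512785, - strand: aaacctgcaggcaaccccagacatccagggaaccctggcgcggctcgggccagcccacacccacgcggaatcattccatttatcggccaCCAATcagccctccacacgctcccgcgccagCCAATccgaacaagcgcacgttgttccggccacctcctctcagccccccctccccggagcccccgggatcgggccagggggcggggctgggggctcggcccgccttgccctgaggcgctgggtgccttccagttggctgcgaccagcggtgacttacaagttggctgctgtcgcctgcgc
DHCR7, chr11:71448344-71448643, - strand: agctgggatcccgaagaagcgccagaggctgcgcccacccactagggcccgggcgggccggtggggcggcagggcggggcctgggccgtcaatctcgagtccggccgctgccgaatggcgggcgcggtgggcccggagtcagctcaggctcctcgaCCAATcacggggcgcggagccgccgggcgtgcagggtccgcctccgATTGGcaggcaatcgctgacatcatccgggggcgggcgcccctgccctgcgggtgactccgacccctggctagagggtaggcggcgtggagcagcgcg
NSDHL, chrX:152830813-152831112, + strand: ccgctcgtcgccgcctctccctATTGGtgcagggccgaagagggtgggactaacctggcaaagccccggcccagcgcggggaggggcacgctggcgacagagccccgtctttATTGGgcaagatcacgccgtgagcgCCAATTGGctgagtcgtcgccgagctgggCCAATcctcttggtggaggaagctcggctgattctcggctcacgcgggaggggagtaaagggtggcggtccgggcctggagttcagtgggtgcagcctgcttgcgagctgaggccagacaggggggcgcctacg
EBP, chrX:48521558-48521857, + strand: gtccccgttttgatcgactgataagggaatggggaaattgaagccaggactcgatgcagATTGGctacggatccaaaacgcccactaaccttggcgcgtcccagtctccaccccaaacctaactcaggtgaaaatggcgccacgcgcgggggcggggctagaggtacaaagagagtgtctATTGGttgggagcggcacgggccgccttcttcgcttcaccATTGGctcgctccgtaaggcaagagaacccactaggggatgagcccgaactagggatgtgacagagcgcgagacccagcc
ACSL3, chr2:222860786-222861085, + strand: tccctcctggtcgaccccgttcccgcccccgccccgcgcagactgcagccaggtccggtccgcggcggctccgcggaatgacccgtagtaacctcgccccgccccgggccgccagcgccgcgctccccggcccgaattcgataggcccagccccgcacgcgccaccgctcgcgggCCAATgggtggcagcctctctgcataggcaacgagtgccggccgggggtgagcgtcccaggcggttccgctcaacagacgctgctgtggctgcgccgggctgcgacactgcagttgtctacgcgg
INSIG1, chr7:155297628-155297927, + strand: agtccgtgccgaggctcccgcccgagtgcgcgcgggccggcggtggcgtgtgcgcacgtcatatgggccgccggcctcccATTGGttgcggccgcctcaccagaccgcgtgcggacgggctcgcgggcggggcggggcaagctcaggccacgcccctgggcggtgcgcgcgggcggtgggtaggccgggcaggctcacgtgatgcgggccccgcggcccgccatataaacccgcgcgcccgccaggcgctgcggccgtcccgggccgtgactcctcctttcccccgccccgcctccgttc

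Within the *SREBF2* window the sterol motif begins 133 bases upstream of the start, and a CCAAT match lies 106 bases upstream. *NSDHL* has 5 CCAAT matches, *EBP* has 3, *STARD4* and this window of *DHCR7* have 2 each, and *ACSL3* and *INSIG1* have 1 each. The printed windows of both sets thus hold the CCAAT letters. The sets are not separate in response, since *NSDHL* also rose in FBS, and *EBP* and *INSIG1* also rose with ligand. The window of *CYP51A1*, which rose with ligand, that of *FADS1*, which rose in FBS, and a further window of *DHCR7* hold 0 matches.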

How the data were processed

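PolyA RNA was captured and sequenced with strand kept, in 32 LNCaP libraries. The authors trimmed reads with Trimmomatic 0.36 and estimated gene values with RSEM around STAR 2.7.0f on hg19, per the submitters' processing notes. The gene annotation is not given in the sources used here. They deposited RSEM expected counts for each gene, which are not normalized and of which 11.2% are not whole, and TPM values, scaled for length and library total. Columns left unused numbered 0. Groups, batches, and replicates come from the sample labels, which call the replicates biological. Nothing else says that they were separate cultures, so *P* values measure the spread between these libraries. The 31 genes, their roles, and the other lists were chosen with earlier results of these data known.

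Expected counts were rounded, and 16995 genes passed a filter of 5 or more counts in 3 or more libraries. The quasi-likelihood test of edgeR 4.0.16 (R 4.3.3) was fitted over all 32 libraries with TMM scaling and terms for group and batch. *P* values were adjusted by Benjamini-Hochberg within each of 11 comparisons, and genes below 0.05 were called. The study's own threshold adds a log2 fold change beyond 1, given as an alternative. Per-library values are named for the member of each role with the largest called change in FBS, EGF 4 h, and NRG-1 4 h against CSS, and for *HMGCS1*, *SQLE*, *FASN*, *SCD*, *INSIG1*, *SREBF1*, and *SREBF2*. The other lists are named by their largest change in FBS and with EGF.

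Libraries with the same batch and number deviated together from the means of their groups in each of 112 pairs (*r* from 0.133 to 0.571). Part of this is the shared batch that the labels give. With batch removed *r* was over 0.1 in 35 pairs, all in batch 2 (22 of 28 for replicate 1 and 13 of 28 for replicate 2). In batch 1 it was over 0.1 in 0 of 28 pairs for each replicate, and at most 0.0836. A shared deviation by number beyond batch was thus seen in batch 2 alone. The labels state no pairing across groups, and the part of the length shift of batch 2, replicate 2 in this was not tested. A fit with the batch and replicate number as a block was compared over all libraries. No 2 libraries of a group agreed within sampling noise (chi-square per degree of freedom at least 6.5).

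Alternatives were DESeq2 1.42.0, its size factors in edgeR, each batch alone, a fit of the compared groups only, the replicate block, no term for batch, no count filter, a filter of 10 or more counts in all libraries, limma 3.58.1 on log2(TPM + 1) or log2(TPM + 0.1) and without its filter, the fold limit, and each library left out. After seeing the data, 2 were added: leaving out all 8 libraries of batch 2, replicate 2, and offsets for transcript length with the replicate block. Length was taken from the ratio of expected count to TPM, over 12467 genes and 31 of 31 members. At 63822654 counts or more per library the spread between libraries, not counting error, limits precision.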

Additional observations from a re-analysis of the deposited data

Results flagged for a closer look

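Each member and group of 4 libraries was searched for a library far from the other 3, by its gap to the nearest divided by the range of the group (above Dixon's critical value for 4). Of 248 such groups 22 had one, where about 12.4 would be expected for 4 like and independent libraries. The groups here hold 2 batches each and the members share the same libraries, so no excess can be read from these counts. In 14 of the 22 the library was batch 2, replicate 2.

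In these 14, that library was the lowest of its group for *SREBF2*, *SCAP*, *LSS*, *ACACA*, *FASN*, and *CYP51A1*. *SREBF2* had 241 CPM with EGF at 4 hours against 287 to 296 in the others, and *SCAP* had 73.1 against 88.1 to 91.1 there and 56.1 against 75.4 to 78.6 with NRG-1 at 1 hour. *LSS* had 52.9 against 69.8 to 72.4 with NRG-1 at 1 hour, *ACACA* 279.5 against 428 to 437 with EGF at 5 minutes, and *FASN* 770.2 against 1110 to 1154 with NRG-1 at 5 minutes. *CYP51A1* had 139 against 142 to 143 in CSS. It was the highest of its group for *MSMO1*, *NSDHL*, *HSD17B7*, and *EBP*. *MSMO1* had 122 CPM against 69.2 to 75.2 with EGF at 5 minutes, 103.5 against 70.7 to 71.6 with NRG-1 at 5 minutes, and 132 against 78.5 to 86.6 with NRG-1 at 1 hour. With EGF at 5 minutes *NSDHL* had 33.3 against 25.5 to 26.7, *HSD17B7* had 49.5 against 28.1 to 30.8, and *EBP* had 54.2 against 42.0 to 43.4. *HSD17B7* also had 44.5 against 27.4 to 29.4 with NRG-1 at 5 minutes.

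The other 8 were spread over both batches. *PMVK* had 58.2 CPM in NRG-1 at 1 hour, batch 1 replicate 2, against 50.9 to 52.1. *MVD* had 20.0 in NRG-1 at 5 minutes, batch 2 replicate 1, against 17.9 to 18.1. *FDPS* had 101 in EGF at 1 hour, batch 1 replicate 1, against 92.5 to 93.0. *TM7SF2* had 186 in NRG-1 at 5 minutes, batch 1 replicate 2, against 194 to 196. *SC5D* had 229.6 in EGF at 4 hours, batch 2 replicate 1, against 286 to 294. *ACSS2* had 53.0 in FBS batch 1 replicate 1 against 45.4 to 46.2. *FADS1* had 89.6 in NRG-1 at 1 hour, batch 1 replicate 2, against 93.9 to 94.6, and *FADS2* had 334 in EGF at 1 hour, batch 2 replicate 1, against 291 to 294.

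The effect of the 2 ligands at 4 hours differed for *INSIG1* by a direct test, with a log2 fold change of -0.57 for EGF against NRG-1.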

How the results depend on the processing

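Of 7502 values of single members under an alternative, 7139 had the same call in both fits or no call in either. Of the rest, 199 lost a call, 161 gained one, and 3 changed sign while called in at least 1 of the fits. The sign of values called in neither fit was not compared. The 3 are *ACLY* in FBS against CSS under limma on TPM, at -0.0137 with log2(TPM + 1), with or without the filter, and -0.0141 with log2(TPM + 0.1). Under those TPM fits the median of all genes in FBS against CSS was -0.13 and -0.19, and -0.021 without the filter, where it was -0.0082 in edgeR. Medians of the members under log2(TPM + 1), the same without its filter, moved to 0.106 in FBS (0.108 with a pseudocount of 0.1), 0.0710 for EGF at 4 h (0.0731), 0.0692 for NRG-1 at 4 h (0.0695), 0.0182 for NRG-1 at 1 h (0.0183), 0.108 for EGF against NRG-1 at 1 h (0.113), -0.0935 for EGF at 4 h against FBS (-0.0936), and -0.0962 for NRG-1 at 4 h against FBS (-0.0965). Members called moved to 12 in FBS (11 without the filter) and 2 for NRG-1 at 1 h.

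For counts called, the replicate block, which pairs the libraries, gave 4 for each ligand at 1 h, 20 for EGF at 4 h, and 3 for EGF against NRG-1 at 4 h. It gained 25 calls of single members, lost 0, and changed no other call. Without batch 2, replicate 2 the counts were 4 and 3 at 1 h and 20 for EGF at 4 h, and medians were 0.40 in FBS and -0.31 for EGF at 4 h against FBS. With length offsets they were 7 and 5 at 1 h, 21 for EGF at 4 h, and 5 for EGF against NRG-1, with medians of 0.40 and -0.31. For NRG-1 at 4 h length offsets gave 21 higher and 6 lower, where 26.9% and 26.5% of all genes were. Of all genes, that fit had 9.84% higher with EGF and 7.56% with NRG-1 at 1 h. For EGF at 4 h it had 29.5% higher and 29.8% lower, and 2.34% lower for EGF against NRG-1 at 4 h. Batch 1 alone gave 20 for EGF at 4 h and 2 for NRG-1 at 1 h, with medians of 0.41 in FBS and -0.35 for EGF against FBS. Batch 2 alone, with 2 libraries in each group, gave 0 for EGF at 1 h, 6 and 8 at 4 h, 12 in FBS, and 13 and 11 against FBS, with medians of 0.068 for EGF at 4 h, and -0.12 and -0.10 against FBS. The fold limit of 1 gave 0 at 1 h, 1 with each ligand at 4 h, 2 in FBS, 2 for each ligand against FBS, and 0 for EGF against NRG-1. For EGF at 1 h, 1 was called without the batch term and 1 without the filter on low counts, and 4 with only the groups compared. DESeq2 called 2 for NRG-1 at 1 h.

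With 1 library left out, counts ran from 1 to 2 for each ligand at 1 h. Medians ran from 0.30 to 0.39 in FBS, highest without FBS batch 2 replicate 2. They ran from -0.31 to -0.13 for EGF at 4 h against FBS and from -0.27 to -0.11 for NRG-1, nearest 0 without FBS batch 1 replicate 1. The causes of these shifts were not tested.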
